A study of Mus musculus with 6 samples.

Results

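Dendritic cells were followed in naive mesenteric lymph nodes through 10 marker genes: Itgax, Flt3, Xcr1, Siglech, Cd209a, Clec10a, Ccl22, Ccl17, Fscn1 and Cd83. A probe belonged to the set when its accession mapped to one of these symbols in RefSeq. This gave 12 probes for 9 of the 10 genes, out of 41006 probes and 12254 genes with a symbol. Of these genes 6 have 1 probe, and Cd209a, Fscn1 and Cd83 have 2, numbered here from the brighter to the dimmer. Siglech was matched by no probe and was not analysed here. All 12 probes passed the filter on dim signal, being well above background in the node channel on all 6 arrays.

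Dendritic cells take up antigen in tissues, carry it to lymph nodes and present it to T cells. Conventional type 1 cells cross-present antigen to CD8 T cells, conventional type 2 cells mainly prime CD4 T cells, and plasmacytoid cells make type I interferon. On maturation, which TNF is among the signals known to promote, they remodel their cytoskeleton, raise costimulatory molecules and follow Ccr7 ligands into the T cell zone. Mature cells there secrete CCL17 and CCL22, the ligands of CCR4, a chemokine receptor of T cells.

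The comparison set 3 pools of B-TNF KO nodes (here B_TNF_KO), with TNF deleted in B cells, against 3 pools of TB-TNF KO double nodes (here TB_TNF_KO), with TNF deleted in T cells as well. All mice were adult and carried a gene knock out, so B cell TNF was deleted in both groups and no wild-type pool was analysed here. A pool combined the mesenteric nodes of 3 mice, and its RNA was hybridised in Cy3 beside a Cy5 reference made from 11 mouse cell lines, among them B cell, T cell and macrophage lines. How the deletions were driven is not given in the sources used here, nor is an age beyond adult. All pools were labelled male except TB_TNF_KO replicate 2, labelled female. Values are log2 ratios of node over reference unless another scale is named, and differences are TB_TNF_KO minus B_TNF_KO. With whole nodes, fewer cells of a type and less RNA per cell cannot be told apart.

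Several facts about the arrays bear on every result. Between TB_TNF_KO arrays 1 and 2 the spread of differences in the node channel was 0.951 times that in the reference channel, which held the same RNA, and 20 probes differed over 2-fold. They thus differed by less than the technical noise. They were counted as 1 sample, so n was 3 against 2. Every other pair of arrays had a higher ratio, but pairs from different groups came near. The ratio was 1.05 for B_TNF_KO array 2 and TB_TNF_KO array 1, with 91 probes over 2-fold apart. Between the replicate 3 arrays it was 1.22, with 35 such probes. TB_TNF_KO arrays 1 and 2 gave Y-linked Eif2s3y at -2.81 and -2.84, although replicate 1 is labelled male, and the other 4 arrays lay between 0.59 and 1.83. Transcripts of the neighbouring exocrine pancreas had a median log2 ratio of 3.60 and 4.42 on B_TNF_KO arrays 1 and 2, 4.77 on each of TB_TNF_KO arrays 1 and 2, and 0.0020 and 0.0039 on the replicate 3 arrays. Each group was read by Feature Extraction on a day of its own, so that day and genotype cannot be told apart. The targeted gene Tnf was at 0.19, 0.36 and 0.49 in B_TNF_KO and at -0.66, -0.63 and -0.84 in TB_TNF_KO, a difference of -1.09 (SE 0.10, limma adjusted p = 0.055). Lymphocyte markers stood above the reference throughout. The median of 11 B cell genes lay between 2.10 and 2.83, and that of 12 T cell genes between 2.04 and 2.34.

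The stretches below, 30 bases of each of 4 probes, are shown because the difference between the groups followed the GC content of the probe over the whole array. They are given 5′ to 3′ as deposited, with the longest run of A and T in the probe in capitals.
Ccl22: agctatagTTATATTTATATAggaaagagg
Fscn1 probe 1: ctttgaactggAAAATAAAgtaaaatcaag
Clec10a: tgaaatctgtgATATTTTgtacagtgtgca
Ccl17: catggtttcaacATAAAAcggcctgtgacc
Over their full 60 bases these probes had a GC content of 26.7%, 31.7%, 40% and 53.3%, in that order. The Ccl22 probe carried a run of 13 A and T bases and the first Fscn1 probe one of 8. At an unadjusted p under 0.05, 23.1% of all probes of up to 35% GC had lower values in TB_TNF_KO and 3.4% higher. These shares were 11.5% and 5.15% from 35% to 45% GC, 4.06% and 5.87% from 45% to 55%, and 2.25% and 5.64% above 55%. In the reference channel alone 14.1% of all probes were lower and 8.91% higher, although its RNA was the same throughout.

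No member probe passed the threshold of an adjusted p under 0.05 in either direction by limma. At an unadjusted p under 0.05, 4 of the 12 member probes were lower in TB_TNF_KO (Fscn1 probe 1, Ccl22, Clec10a and Flt3) and 0 were higher. Over the 40646 probes tested the background was 0.0148% lower and 0% higher at the adjusted threshold, and 11.1% lower and 5.04% higher at the unadjusted one. The groups did not overlap, with TB_TNF_KO the lower, in 5 member probes (17% of all probes), and with TB_TNF_KO the higher in 0 (10.7% of all probes). The median difference was -0.12 over the 12 member probes and -0.01 over all probes. Earlier results of these data were known when the members were chosen, so their direction is a description.

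**Figure D1:**
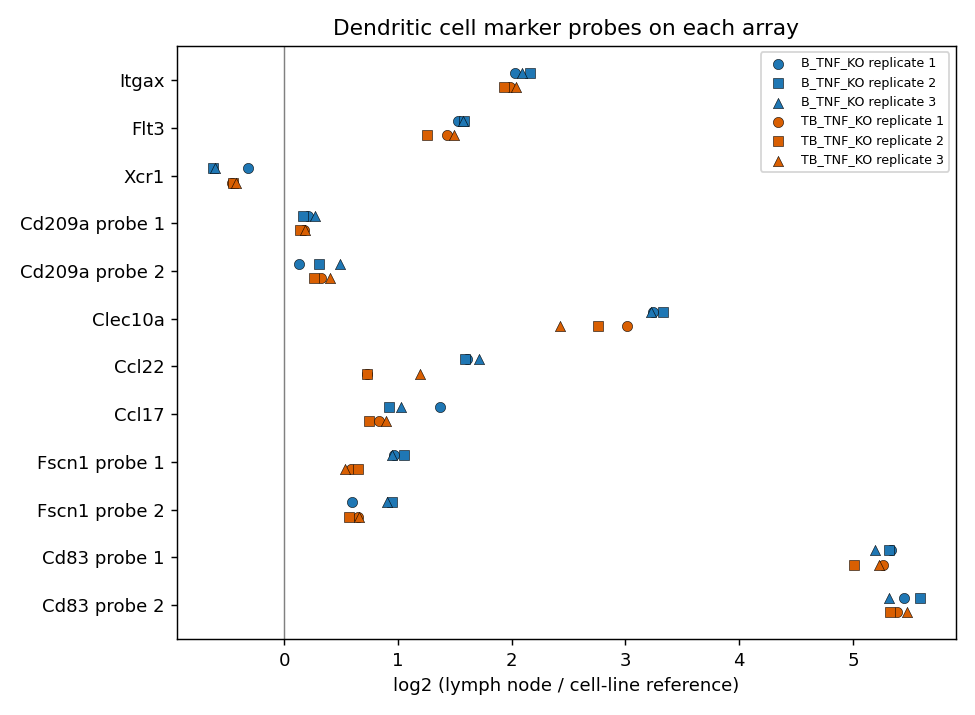
Log2 ratio of lymph node over cell-line reference (x axis) for the 12 member probes (rows) on each of the 6 arrays, blue for B_TNF_KO and orange for TB_TNF_KO, with a marker shape for each replicate number. The groups are apart for Clec10a, Ccl22, Ccl17, Flt3 and the first Fscn1 probe, and overlap for the other 7 probes.

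Ccl22 and Ccl17 encode the CCR4 ligands made by mature dendritic cells. On the B_TNF_KO arrays the Ccl22 log2 ratio read 1.60, 1.59 and 1.72, on the TB_TNF_KO arrays 0.73, 0.73 and 1.20. The TB_TNF_KO arrays were all lower, with replicate 3 nearest to the other group. The difference of -0.68 (SE 0.13, 95% interval -1.005 to -0.35) was a 1.60-fold lower ratio and had an adjusted p of 0.089 by limma. Ccl22 was a dim probe. Its background-subtracted node intensity read 139.5, 107 and 170.0 on the B_TNF_KO arrays, against 41.2, 34.8 and 56.2 on the others, before any scaling between arrays. In the reference channel it was 33.7, 19.0 and 35.3 against 19.3, 12.6 and 7.69, and the spot was well above background on 4 of 6 arrays.

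The node channel alone gave a Ccl22 difference of -0.86 (SE 0.11, adjusted p = 0.048), the one member probe past the threshold there. On that scale 0.741% of all probes were called lower and 0.642% higher. The reference channel differed by -0.43 (adjusted p = 0.13) although the same RNA was on every array. The size and direction of the Ccl22 ratio differed between ways of processing the signals: it was -0.26 without background subtraction, -0.28 with median centring, and 0.11 with the processed signals of the scanner files. In the authors' deposited series table the difference was -1.23. With the GC correction it was -0.58 (adjusted p = 0.11). With the replicate number as a block, over 6 arrays counted separately, it was -0.75 (adjusted p = 0.014). That fit called 6.26% of all probes lower and 1.84% higher, and its p is too small if TB_TNF_KO arrays 1 and 2 held 1 RNA. With those 6 arrays and no block, 2 member probes were called lower, Ccl22 and the first Fscn1 probe, and 0 higher, against 4.55% and 1.46% of all probes. Among the pools with pancreas transcripts the Ccl22 difference was -0.87, and between the replicate 3 pools it was -0.52.

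Ccl17 was less far apart. B_TNF_KO arrays had log2 ratios of 1.37, 0.92 and 1.02, and TB_TNF_KO arrays of 0.83, 0.75 and 0.90. The groups did not overlap, but B_TNF_KO replicate 2 lay just above TB_TNF_KO replicate 3. The difference was -0.26 (SE 0.13, 95% interval -0.58 to 0.06, adjusted p = 0.41), and -0.30 in the node channel alone (adjusted p = 0.22). The spread among B_TNF_KO pools was 0.23 (SD, n = 3), nearly the size of the difference. Without B_TNF_KO replicate 1, the highest array, it was -0.13. The probe was well above background in both channels on all arrays. CCR4 itself, measured by 1 probe, differed by -0.05 (SE 0.05), and its log2 ratio lay between -0.09 and 0.0013 on all arrays.

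The genes of both chemokines are neighbours on chromosome 8, Ccl22 at 94745684 to 94751388 and Ccl17 at 94809380 to 94812038 in GRCm38.p6, with Cx3cl1, the fractalkine gene, between them. The 250 bases before a RefSeq start of each are printed because both had lower values and both are known targets of NF-kB, the factor that TNF receptors activate. Capitals mark GGGACTT, searched on both strands, the first letters of the kappa B element of the immunoglobulin kappa enhancer, a motif chosen after these sequences had been seen.
Ccl22, chr8:94745434-94745683, plus strand: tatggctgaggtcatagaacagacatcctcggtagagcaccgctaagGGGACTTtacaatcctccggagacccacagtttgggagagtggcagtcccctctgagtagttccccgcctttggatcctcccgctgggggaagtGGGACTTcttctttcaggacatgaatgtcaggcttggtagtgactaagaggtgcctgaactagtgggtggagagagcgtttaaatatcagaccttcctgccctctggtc
Ccl17, chr8:94810203-94810452, plus strand: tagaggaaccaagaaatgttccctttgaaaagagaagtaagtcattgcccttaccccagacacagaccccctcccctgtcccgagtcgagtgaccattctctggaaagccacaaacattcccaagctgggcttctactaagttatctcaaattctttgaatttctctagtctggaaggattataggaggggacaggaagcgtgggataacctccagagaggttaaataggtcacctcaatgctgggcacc
The Ccl22 window held GGGACTT at 2 places, beginning 203 and 109 bases before the start, and the Ccl17 window held 0. Of 32851 RefSeq promoter windows of this length 4.65% held it. The full NF-kB consensus was in 7.25% of them and in 0 of the 8 members' windows in the table. The Ccl17 window belongs to a start inside the gene's listed span. A letter match is a description of the sequence and shows no binding. A part of NF-kB in the lower values of both genes was not tested.

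**Figure D2:**
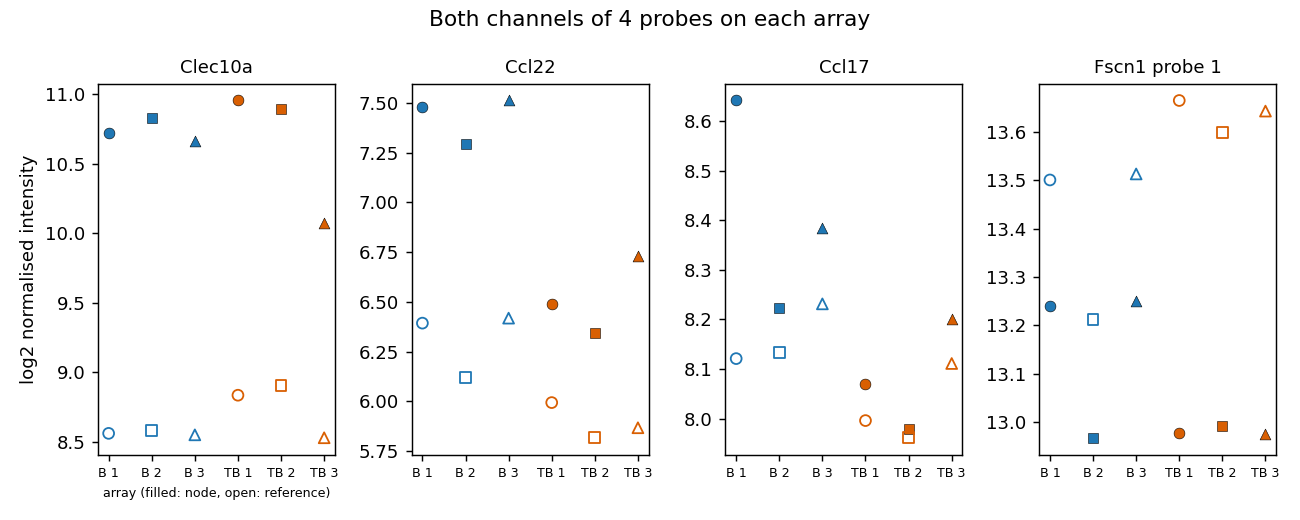
Log2 quantile-normalised intensity (y axis) of Clec10a, Ccl22, Ccl17 and the first Fscn1 probe on each array (x axis), node channel filled and reference channel open, blue for B_TNF_KO and orange for TB_TNF_KO, each panel with its own scale. In the node channel Ccl22 and Ccl17 are lower on every TB_TNF_KO array, while Clec10a is low on TB_TNF_KO replicate 3 alone and Fscn1 probe 1 overlaps between the groups.

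Fscn1 encodes fascin, the actin-bundling protein of the dendrites of mature dendritic cells. Its brighter probe had log2 ratios of 0.97, 1.05 and 0.95 for B_TNF_KO, against 0.59, 0.65 and 0.53 for TB_TNF_KO. The groups were clearly apart and each was tight, with an SD of 0.06 in both. The difference of -0.41 (SE 0.05, 95% interval -0.54 to -0.28, adjusted p = 0.055 by limma) gave the smallest p of the set, ranked 181 of 40646. With the node channel alone it was -0.17 (adjusted p = 0.35). The reference channel differed by 0.23 (adjusted p = 0.27), so the ratio combined lower node values with higher reference values.

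The second Fscn1 probe, dimmer and richer in GC, had log2 ratios of 0.59, 0.95 and 0.90 in B_TNF_KO and 0.65, 0.57 and 0.66 in TB_TNF_KO. Here B_TNF_KO replicate 1 lay among the TB_TNF_KO arrays. The difference was -0.18 (SE 0.11, adjusted p = 0.50), with -0.13 in the node channel and -0.02 in the reference channel. Single arrays moved it: it was -0.29 (SE 0.05, adjusted p = 0.11) without B_TNF_KO replicate 1 and -0.11 without B_TNF_KO replicate 2. Both Fscn1 probes thus had a lower mean in TB_TNF_KO, but only the one with low GC separated the groups. The GC correction took the first probe to -0.33 (adjusted p = 0.095) and left the second at -0.20. The first probe was past the threshold with the replicate number as a block over 6 arrays (-0.40, adjusted p = 0.012) and with array weights (-0.41, adjusted p = 0.045). Those settings called 6.26% and 0.782% of all probes lower. The block fit also counted TB_TNF_KO arrays 1 and 2 separately, which makes p too small if both held 1 RNA.

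Cd83 encodes a surface molecule of mature dendritic cells that activated B cells also carry. It stood far above the reference on every array. Log2 ratios of its brighter probe were 5.34, 5.32 and 5.20 in B_TNF_KO and 5.26, 5.01 and 5.23 in TB_TNF_KO, and those of the other were 5.45, 5.59 and 5.32 against 5.39, 5.32 and 5.48. The groups overlapped on both probes. The differences were -0.10 (95% interval -0.25 to 0.05) and -0.03 (95% interval -0.25 to 0.18), with adjusted p of 0.49 and 0.90. Without TB_TNF_KO replicate 1 or 2 the brighter probe differed by -0.17 and -0.04. These intervals of the ratio leave room for a change of up to 0.25 in the lower direction. In the node channel alone the probes differed by -0.12 and -0.03. The reference channel differed by -0.31 on both, although its RNA was the same throughout.

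Clec10a encodes a galactose-binding lectin of type 2 conventional dendritic cells and of some macrophages. Log2 ratios were 3.24, 3.33 and 3.22 for B_TNF_KO, against 3.02, 2.76 and 2.43 for TB_TNF_KO. The B_TNF_KO pools lay close together and the TB_TNF_KO pools spread, replicate 3 being the lowest. The difference of -0.61 (SE 0.13, 95% interval -0.93 to -0.29) was a 1.53-fold lower ratio with an adjusted p of 0.099, and -0.53 with the replicate number as a block over 6 arrays (adjusted p = 0.044). That block fit called 6.26% of all probes lower, and its p is too small if TB_TNF_KO replicates 1 and 2 held 1 RNA. In the node channel alone the log2 intensities were 10.72, 10.83 and 10.66 in B_TNF_KO and 10.96, 10.90 and 10.08 in TB_TNF_KO. There the groups overlapped, TB_TNF_KO replicates 1 and 2 being the highest arrays, and the difference was -0.24 (SE 0.22, adjusted p = 0.58). Without TB_TNF_KO replicate 3, which left 1 sample in that group, the ratio differed by -0.38. Between the pools with pancreas transcripts it differed by -0.40 and between the replicate 3 pools by -0.80.

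Cd209a, a DC-SIGN homologue also of type 2 cells, was near the reference level. Its probes ranged from 0.14 to 0.27 and from 0.13 to 0.49 over the 6 arrays, with overlapping groups. The differences were -0.04 (95% interval -0.16 to 0.08) and 0.04 (95% interval -0.22 to 0.30), neither past the threshold (adjusted p = 0.74 and 0.90). With single arrays left out the first probe ranged from -0.07 to -0.02. The channels taken singly had differences of opposite sign on the 2 probes. The first was at -0.20 in the node and -0.23 in the reference channel, and the second at 0.41 and 0.52. On each probe both channels differed the same way.

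Itgax, the CD11c integrin chain carried by most dendritic cells, had log2 ratios of 2.03, 2.16 and 2.09 in B_TNF_KO and 1.98, 1.93 and 2.04 in TB_TNF_KO. TB_TNF_KO replicate 3 reached the range of the other group. The difference was -0.10 (SE 0.06, 95% interval -0.24 to 0.05, adjusted p = 0.49), and -0.08 in the node channel. Its reference channel differed by -0.13. Without B_TNF_KO replicate 2 the ratio differed by -0.06.

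Flt3, the receptor whose ligand sustains dendritic cell development, was at 1.53, 1.58 and 1.58 in B_TNF_KO and 1.43, 1.26 and 1.49 in TB_TNF_KO. The groups did not overlap in the ratio, yet the smallest gap between them was only that from 1.49 to 1.53. The difference of -0.15 (SE 0.06, adjusted p = 0.30) turned to 0.21 in the node channel alone (adjusted p = 0.22), where the reference channel also differed by 0.21. Without TB_TNF_KO replicate 3 the ratio differed by -0.22. The ligand gene Flt3l differed by -0.03 (SE 0.04).

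Xcr1, the chemokine receptor restricted to type 1 conventional dendritic cells, was below the reference at -0.32, -0.63 and -0.61 in B_TNF_KO and -0.46, -0.45 and -0.42 in TB_TNF_KO. The TB_TNF_KO arrays lay inside the range of B_TNF_KO. The difference was 0.08 (SE 0.10, 95% interval -0.17 to 0.33, adjusted p = 0.77). It was 0.18 (SE 0.05, adjusted p = 0.17) without B_TNF_KO replicate 1, and 0.02 and 0.03 without replicates 2 and 3 of that group. Its ligand gene Xcl1, expressed by NK and CD8 T cells, was at 2.52, 2.47 and 2.81 in B_TNF_KO and 2.16, 1.95 and 2.13 in TB_TNF_KO. Here all TB_TNF_KO arrays were lower, by -0.51 (SE 0.11, adjusted p = 0.095) in the ratio and -0.54 (adjusted p = 0.048) in the node channel alone.

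**Figure D3:**
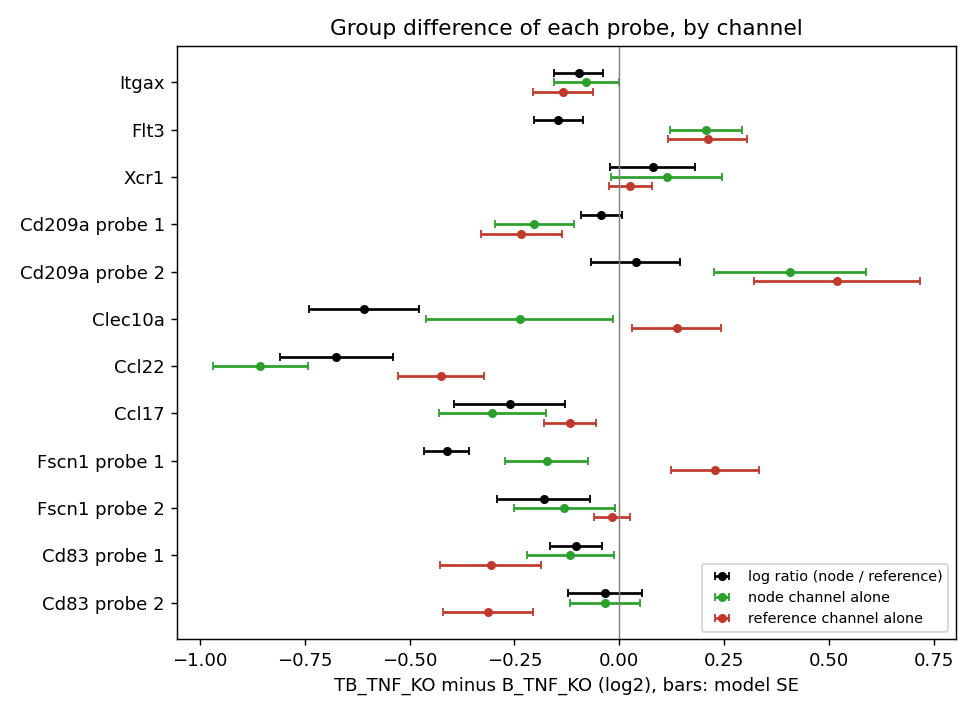
Difference TB_TNF_KO minus B_TNF_KO on the log2 scale (x axis) for each member probe (rows), from the log ratio (black), the node channel alone (green) and the reference channel alone (red), with bars of 1 model SE. Ccl22 and Ccl17 are lower in the node channel as in the ratio, whereas for Clec10a and the first Fscn1 probe the node channel gives -0.24 and -0.17 beside ratios of -0.61 and -0.41.

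Other genes of dendritic cells were taken from 5 lists, each gene by its brightest probe. Of 83 genes tested, 0 passed the adjusted threshold by limma, and the median difference was -0.10. At an unadjusted p under 0.05, 25 were lower and 4 higher (30.1% and 4.82%), against 11.1% and 5.04% of all probes. With the node channel alone 17 were lower and 4 higher, the median was -0.05, and the background was 11.7% lower and 10.9% higher. The lists contributed unequally.

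Maturation and migration genes made up 14 of the 25 lower ones, out of 32 tested, with 1 higher (Cd80) and a median of -0.16. These shares were 43.8% lower and 3.1% higher, against 11.1% and 5.04% of all probes. Those named by rule were Pdcd1lg2, the PD-L2 ligand gene, at -0.47 (SE 0.06, adjusted p = 0.055), Tmem123, a surface mucin gene, at -0.48 (SE 0.06, adjusted p = 0.055), and Ccr7, the receptor that guides mature cells into nodes, at -0.22 (SE 0.07, adjusted p = 0.19). The Pdcd1lg2 probe differed by -0.01 in the node channel and by 0.42 in the reference channel, so its difference in the ratio lay in the reference channel. Ccr7 differed by 0.11 in the node channel alone. Tmem123 differed by -0.44 there, and its second probe by -0.18 in the ratio. The costimulatory gene Cd80 was at 0.17 in the ratio and -0.12 in the node channel, and Il15ra at 0.11 and 0.13.

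Further genes of this list, chosen after their values were seen, had lower values in both the ratio and the node channel. They were Serpinb6b (-0.66 and -0.65), the fatty-acid-binding protein gene Fabp5 (-0.56 and -0.48), the cytokine genes Il15 (-0.37 and -0.40) and Il1b (-0.27 and -0.30), the NF-kB subunit gene Relb (-0.23 and -0.18), Icam1 (-0.25 and -0.20) and Cd40 (-0.20 and -0.16). A second probe of Serpinb6b gave -0.24 in the ratio and -0.05 in the node channel, and a second Fabp5 probe gave -0.52 and -0.50. In the node channel alone 9 of the 32 were lower and 1 higher at an unadjusted p under 0.05, against 11.7% and 10.9% of all probes. Fabp5 passed the adjusted threshold there (adjusted p = 0.048). Several of these genes are also expressed by macrophages, B cells or stroma.

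Among plasmacytoid genes 5 of 13 were lower and 1 higher (38.5% and 7.7%), against 11.1% and 5.04% of all probes. Tcf4, the factor that specifies plasmacytoid cells and is also active in B cells, was at -0.41, -0.29 and -0.28 in B_TNF_KO and -0.67, -0.68 and -0.59 in TB_TNF_KO. All TB_TNF_KO arrays were lower, by -0.31 (SE 0.06, adjusted p = 0.087) in the ratio and -0.26 in the node channel. The nucleic acid sensor gene Tlr7 differed by -0.27 (SE 0.05, adjusted p = 0.090), and Ly6d, a marker of lymphoid plasmacytoid precursors and of B cells, by 0.27 (SE 0.05, adjusted p = 0.085). The other lower ones were Atp1b1, Pacsin1 and Smim5, between -0.36 and -0.16. A second Atp1b1 probe gave 0.18, against the first.

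At an unadjusted p under 0.05, 20% of type 1 genes were lower and 0% higher, and 12.5% and 6.25% of type 2 genes. Among shared genes these shares were 16.7% and 8.33%, against 11.1% and 5.04% of all probes. Of 10 genes in the type 1 list Gcsam (-0.22) and Xcl1 were lower and 0 higher. Gcsam differed by only -0.03 in the node channel. Xcl1 encodes the XCR1 ligand of NK and T cells rather than a marker of the dendritic cells themselves. Of 16 type 2 genes the lectin genes Clec4n (-0.57) and Cd209d (-0.39) were lower and Cd207, encoding langerin, was higher by 0.32 (SE 0.09, adjusted p = 0.16). A second Clec4n probe gave -0.24. In the node channel Clec4n and Cd209d differed by -0.07 and -0.03, and Cd207 by 0.66 (adjusted p = 0.048). Of 12 shared genes Kmo (-0.19) and Csf2rb2 (-0.17) were lower in the ratio but at 0.09 and 0.02 in the node channel. Irf8, a factor of type 1 and plasmacytoid cells, was higher by 0.26 (SE 0.10, adjusted p = 0.28), and its second probe by 0.10. Irf4, its counterpart in type 2 cells, differed by -0.06 (SE 0.08).

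**Figure D4:**
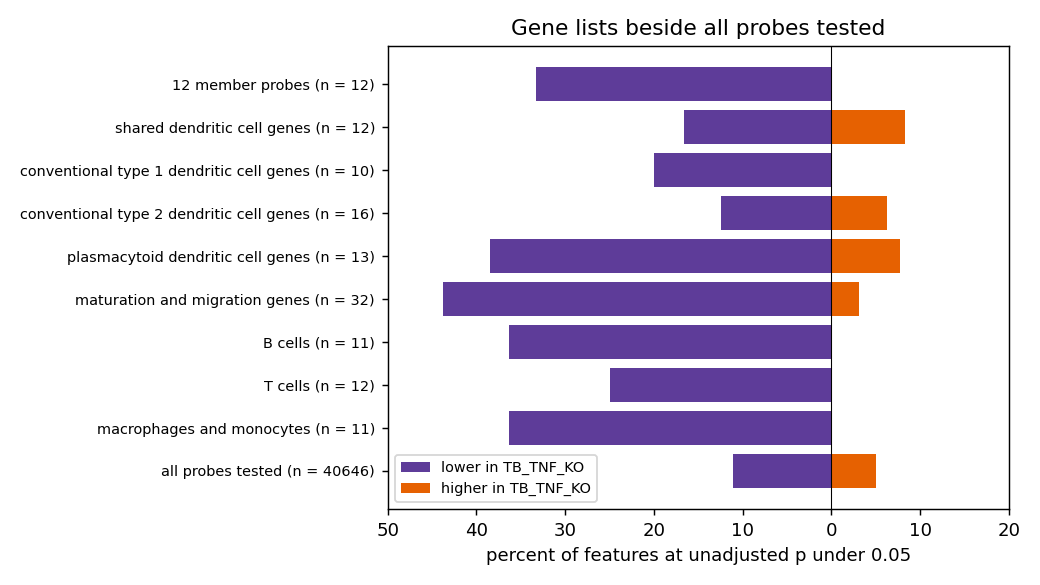
Percent of genes at an unadjusted p under 0.05 (x axis), lower in TB_TNF_KO to the left and higher to the right, for the 12 member probes, the 5 dendritic cell lists, 3 lists of other cells and all 40646 probes tested. The lower share is 33.3% for the member probes, 43.8% for maturation and migration genes and 11.1% for all probes, and the B cell and macrophage lists are each at 36.4%.

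Lists of markers of other cells also had more lower than higher values, and 0 genes of the B cell, T cell and macrophage lists passed the adjusted threshold by limma. In the B cell list 4 of 11 genes were lower and 0 higher at an unadjusted p under 0.05, against 11.1% and 5.04% of all probes. Blk (-0.51) and Cd79a (-0.42) led the lower ones, while 3 genes had higher values, among them Cd22 (0.12) and Cd79b (0.05). The median difference of the list was -0.10, and -0.06 in the node channel. On every array the list's median level was the Blk probe, the gene with the smallest p. It ranged over 2.76 to 2.83 on B_TNF_KO arrays and over 2.10 to 2.44 on TB_TNF_KO arrays. In the macrophage and monocyte list 4 of 11 were lower and 0 higher at that threshold, led by Adgre1 (-0.41) and Siglec1 (-0.28), while 3 genes had higher values. The medians of that list were 2.11 to 2.61 on B_TNF_KO arrays and 1.66 to 2.42 on TB_TNF_KO arrays. The T cell list had 3 of 12 lower and 0 higher, with Cd5 at -0.17, Lck at -0.22 and Cd3e at 0.03. The NK cell list had 2 of 5 lower (Ncr1 at -0.34, Klrd1 at -0.16) and 0 higher, with Nkg7 at 0.06 and Gzmb at 0.07. Of 10 stroma and endothelium genes 3 were lower and 0 higher, with a median of -0.14. Among them Lyve1, a hyaluronan receptor of lymphatic endothelium, passed the adjusted threshold at -1.22 (SE 0.05, adjusted p = 0.0092 by limma), while its second probe gave -0.03. Without B_TNF_KO replicate 2, 0 probes of the array passed, Lyve1 included. All tested markers of these 5 lists were well above background on all 6 arrays. Cd83 and Tcf4 are shared with B cells, and Clec10a with macrophages. The part of other cells in the differences of the members was not tested.

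**Figure D5:**
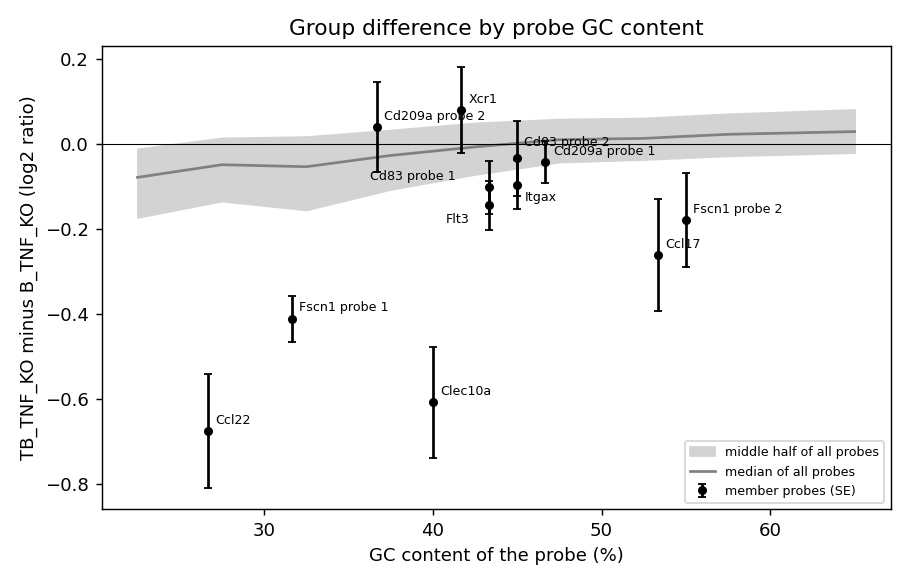
Difference TB_TNF_KO minus B_TNF_KO in log2 ratio (y axis, bars of 1 model SE) against the GC content of the probe in percent (x axis) for the 12 member probes, with the median and quartiles of all probes in grey. The median of all probes goes from -0.08 at up to 25% GC to 0.03 above 60%. Of the 12 member probes 8 lie below the lower quartile of their GC class, with Ccl22 (-0.68), Clec10a (-0.61) and Fscn1 probe 1 (-0.41) the lowest. Above the upper quartile lie 2, Xcr1 (0.08) and the second Cd209a probe (0.04).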

How the data were processed

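The members, lists and tests were chosen with earlier results of these data known. Per the file headers, the authors read 6 two-colour arrays with Agilent Feature Extraction A.7.5.1. The deposited files give spot and background intensity per channel and a log10 ratio. The deposited series table holds log10 values (column medians 2.98 to 2.99) whose scaling and background step are unknown. Across probes, which are not independent, its differences between groups correlated at 0.938 with those of the deposited log ratio and at 0.686 with those of the node channel. Accessions were named through a RefSeq table of GRCm38.p6 (15294 of 41006 probes); promoter sequences are RefSeq's. The sequence of 1 member probe is not reported here.

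Mean intensities were corrected with normexp (offset 50) and loess in limma 3.58.1 (R 4.3.3). Controls had weight 0, and 228 outlier spots were left out. Probes well above background in the node channel on at least 3 arrays were tested (40646), each on its own, with lmFit and eBayes and Benjamini-Hochberg adjustment. Single channels were quantile normalised after normexp. Same-numbered arrays of the groups deviated together (r = 0.134, 0.525 and 0.621 for numbers 1, 2 and 3), so the number was also used as a block; the labels do not say what it marks. Nothing but the labels shows that pools came from separate animals, and 6 arrays limit the precision. Candidates for naming besides the members were the 2 genes per direction with the smallest p in each list, and genes fixed by symbol. Not all of them are named, and for macrophages and stroma only lower ones are. In a list of MHC class II genes 4 of 7 had lower values and 3 higher. Of these Ciita was higher on every TB_TNF_KO array, by 0.74 (SE 0.07, limma adjusted p = 0.055), and by 1.04 in the node channel alone. The fit was tested on simulated data.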

Additional observations from a re-analysis of the deposited data

How the results depend on the processing

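In the 25 alternatives run, no member probe was called higher. The count of member probes called lower, 0, was 1 with the node (sample) channel alone (Ccl22), 1 with array weights (Fscn1 probe 1), 2 with the 6 arrays counted separately (Ccl22, Fscn1 probe 1) and 3 with the replicate block (these and Clec10a), which changed no other member's call. It was 2 when a GC correction was added to either of the last settings, combinations chosen after the data were seen. For the dendritic cell lists the count of lower genes, 0, was 2 with the node channel alone, 2 with robust eBayes, 2 with array weights, 12 with 6 arrays and 12 with the replicate block, and with the GC correction 9 and 8. That of higher genes, 0, was 1, 1 and 1 with the node channel, 6 arrays and the replicate block, and 1 and 2 with the GC correction added. With any 1 replicate other than TB_TNF_KO replicate 3 left out, each of these counts was 0. Those fits called 0% to 0.0123% of all probes lower and 0% higher, so their counts say little about the members. Over all probes the shares called lower and higher were 6.26% and 1.84% with the replicate block, 0.782% and 0.251% with array weights, 1.01% and 0.372% with robust eBayes, 3.58% and 2.16% with the GC correction and block and 2.86% and 1.83% with the GC correction and 6 arrays; those for 6 arrays and the node channel stand with the results. If TB_TNF_KO arrays 1 and 2 held 1 RNA, fits on 6 arrays give p-values that are too small.

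Signs turned for Ccl22 (0.11 with the processed signals), Flt3 (0.21, node channel) and Xcr1 (-0.020, median centring). The second Cd83 probe turned to 0.026 with the processed signals and in the authors' deposited table, and to 0.035 without B_TNF_KO replicate 2, in a range of -0.10 to 0.035 over single replicates left out. The second Cd209a probe turned to -0.041 (median centring), -0.0084 (processed signals), -0.0085 (the authors' deposited table), -0.0020 (mean of both probes). With single replicates left out it ranged from -0.051 to 0.13, below 0 when B_TNF_KO replicate 1 was absent and also when TB_TNF_KO replicate 3 was (-0.013). The cause was not tested. With the replicate 3 pools as a block, 0 member probes were called, against 0.0148% of all probes lower and 0.00246% higher. Leaving those pools out of both groups left TB_TNF_KO with 1 sample, so no count is given for it. The fit on the pools labelled male was that without TB_TNF_KO replicate 2. It kept TB_TNF_KO replicate 1, which lacked Y-linked signal (Eif2s3y at -2.81), so it was not a comparison of male pools alone. The Ccl22 reference spot was well above background on 4 of 6 arrays, which limits its ratio.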
